A study of Mus musculus with 3 samples.

Results

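The genes described here are 5 neighbours on mouse chromosome 4, *Il11ra1*, *Gm13305*, *Ccl27a*, *Ccl19* and *Ccl21a*, out of 31053 genes counted in dissociated cells of the mouse limbus and iridocorneal angle. They were listed by name because their counts had differed between *Angpt1*ΔNC and control eyes or because they lie beside genes that did, so the differences between the genotypes are given as a description without a test, except for that of whether they varied between cell classes. The comparison asks whether the difference was the same in every cell type. *Il11ra1* was higher and *Gm13305* lower in *Angpt1*ΔNC in all 9 cell classes, while their sum lay above both controls in 3 classes and below them in 6. In epithelium, endothelium and immune cells the levels were low, and the part of free RNA in them was not tested. Within the *Angpt1*ΔNC pool *Gm13305* was nearly absent from female-typed cells and present in male-typed ones. *Ccl21a* was found almost only in Schlemm's canal (SC) and lymphatic endothelial cells (LEC), and *Ccl27a* and *Ccl19* in *Angpt1*ΔNC lay between the 2 controls over all cells.

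*Il11ra1* encodes the receptor chain that binds interleukin-11 and signals together with gp130, the product of *Il6st*, through JAK kinases and STAT3. *Gm13305* is a predicted protein-coding gene that the annotation places beside other copies of the same stretch. *Ccl21a* and *Ccl19* encode the ligands of CCR7, a receptor that guides dendritic cells and T cells, and CCL21 made by lymphatic endothelium is known for drawing these cells into lymphatic vessels. *Ccl27a* encodes a ligand of CCR10, best known from skin keratinocytes.

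The 3 libraries compared were 2 from control eyes and 1 from *Angpt1*ΔNC eyes, each a pool of 4 to 6 eyes from 2 to 3 mice aged 6 weeks, labelled as of both sexes, with the tissue cut from the limbus and iridocorneal angle. All mice carried *Angpt1* flox/flox alleles, and the *Angpt1*ΔNC mice also carried Wnt1Cre, which deletes the floxed gene in cells derived from the neural crest and leaves it intact in other lineages. The strain is labelled Mixed, and the line had been crossed for 2 generations to ICR mice to obtain albino litters. Since the pools hold no labels of single mice, a difference between genotypes cannot be told apart from a difference between the mice of the pools, and the *Angpt1*ΔNC group is 1 library.

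The values are counts of unique molecular identifiers (UMIs) in the 9076, 10160 and 6772 cells kept by the authors in control replicate 1, control replicate 2 and *Angpt1*ΔNC, with a median of 6329.5, 6393.5 and 7444 UMIs per cell. Levels are given as CPM, the UMIs of a gene scaled to 1000000 UMIs of the cells summed. *Angpt1* UMIs were found in 17.2% and 17.3% of control cells and in 0.34% of *Angpt1*ΔNC cells. The libraries shared 13 to 25 cell barcodes by pairs. Of 29 marker genes of the labelled cell types, 24 were highest in their own class in all 3 libraries, and the exceptions were *Aqp1*, *Lyve1*, *Pdpn*, *Dcn* and *Lum*. The pools stood apart in sex, and the controls went against the label that both sexes were pooled. Male-typed cells, which held UMIs of Y-linked genes but no *Xist*, numbered 6325, 7326 and 1990, and female-typed cells, which held *Xist* but no Y-linked UMI, numbered 0, 1 and 3861 in control replicate 1, control replicate 2 and *Angpt1*ΔNC. The levels of *Il11ra1* and *Gm13305* over all cells and by class, and their share, are therefore also given by sex type.

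In GENCODE M21 (build GRCm38), *Il11ra1* (ENSMUSG00000073889) lies on the plus strand at chr4:41699989-41769474. *Ccl27a* (ENSMUSG00000073888) follows on the minus strand at chr4:41769467-41774247 and overlaps the end of *Il11ra1* by 8 bases. *Gm13305* (ENSMUSG00000073876) lies 389 kb further on, at chr4:42158842-42168603 on the minus strand. *Ccl19* (ENSMUSG00000071005, chr4:42754525-42756577) and *Ccl21a* (ENSMUSG00000094686, chr4:42772860-42773993) stand on the minus strand beyond it, and the 5 genes span 1074 kb. The symbols *Ccl19* and *Ccl21a* each belong to another feature on scaffold JH584294.1, which held at most 1 UMI in a library and was left out.

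The pair *Il11ra1* and *Gm13305* can be told apart at few bases. The transcripts compared both have 1953 bases in 14 exons and align without a gap, with 22 substitutions and 98.9% identity, of which 5 lie in the 5′ untranslated region, 13 in the coding sequence and 4 in the 3′ untranslated region. A stretch of 260 coding bases near the 3′ end of the coding sequence holds 8 of them and is printed with the differing bases in capitals. Reads there can tell *Il11ra1* from *Gm13305*, but not *Gm13305* from *Il11ra2*.
Il11ra1 (chr4:41767599-41768526, plus strand, exons joined): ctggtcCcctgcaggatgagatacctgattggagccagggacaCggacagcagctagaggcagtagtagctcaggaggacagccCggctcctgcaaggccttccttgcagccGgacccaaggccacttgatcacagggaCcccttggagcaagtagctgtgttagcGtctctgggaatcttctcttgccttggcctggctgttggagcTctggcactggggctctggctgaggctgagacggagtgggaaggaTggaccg
Gm13305 (chr4:42159798-42160726, minus strand, exons joined): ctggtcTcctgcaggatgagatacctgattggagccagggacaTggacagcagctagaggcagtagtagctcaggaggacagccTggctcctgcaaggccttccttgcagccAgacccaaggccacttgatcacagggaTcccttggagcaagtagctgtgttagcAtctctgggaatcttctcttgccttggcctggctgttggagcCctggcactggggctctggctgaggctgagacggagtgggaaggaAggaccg
Counted from 1 at the 5′ end of the transcript and with the base of *Il11ra1* first, these substitutions are C1256T, C1293T, C1334T, G1362A, C1389T, G1416A, T1458C and T1503A. The 4 sites of the 3′ untranslated region, A1691G, C1760T, G1869C and A1913G, are shown with 14 bases on either side, since they are the last ones before the transcript's end.
Il11ra1 at 1691: ggaggtctcagctgAaagtctgagctctt
Gm13305 at 1691: ggaggtctcagctgGaagtctgagctctt
Il11ra1 at 1760: gctgtctggacttcCgatgtcctgaggtg
Gm13305 at 1760: gctgtctggacttcTgatgtcctgaggtg
Il11ra1 at 1869: tgcatgtgtgtacaGatgattggagagtg
Gm13305 at 1869: tgcatgtgtgtacaCatgattggagagtg
Il11ra1 at 1913: ttggcccttctgggAagtgtgaagagttg
Gm13305 at 1913: ttggcccttctgggGagtgtgaagagttg
Of the 1864 windows of 90 bases in the *Il11ra1* transcript, 65.0% occur in no transcript of another gene, and of those in the *Gm13305* transcript, 29.1%. Within the last 400 bases the share was 78.5% for both. The remaining windows of *Gm13305* are shared with *Il11ra1* and *Il11ra2*, whose annotated transcript of 1299 bases aligns to *Gm13305* without a mismatch. How the counting treated reads that match several copies, and whether it used strand, is not given in the sources used here, so the counts of each copy carry that uncertainty.

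The chemokine genes have copies too. *Ccl21a* and its annotated copy *Gm21541* differ at 6 of 870 bases, and the 3 sites nearest to the 3′ end, C640T, T812C and G856A with the base of *Ccl21a* first, are printed with the differing base in capitals (chr4:42772860-42773104, minus strand, for *Ccl21a*, and chr4:41904499-41904743, plus strand, for *Gm21541*).
Ccl21a at 640: cctgcttcaaccatCacatctgcacggcc
Gm21541 at 640: cctgcttcaaccatTacatctgcacggcc
Ccl21a at 812: ctccatggcgccctTcccttgtccttgca
Gm21541 at 812: ctccatggcgccctCcccttgtccttgca
Ccl21a at 856: taactgaataaaaaGgtgatccagcctca
Gm21541 at 856: taactgaataaaaaAgtgatccagcctca
*Gm21541* held 1, 9 and 3 UMIs in control replicate 1, control replicate 2 and *Angpt1*ΔNC, and *Gm13304*, another copy, held 1, 0 and 1. *Il11ra2*, *Ccl21b*, *Ccl27b* and *Gm10591* had no UMI in any library, where 3 UMIs would be 0.0373 to 0.0451 CPM. That floor covers depth only. How reads matching several copies were counted is not given, so the lack of UMIs is not read as absence. The transcripts of *Ccl27a* and *Gm13306* differ at 3 of 418 aligned bases. *Gm13306* held 17, 24 and 7 UMIs.

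Over all kept cells *Il11ra1* was at 26.6 and 30.2 CPM in control replicates 1 and 2 and at 188 in *Angpt1*ΔNC. The *Angpt1*ΔNC library was 6.6-fold above the mean of the controls, which differed from each other by 1.14-fold. *Gm13305* was at 221 and 253 CPM in the controls and at 58.3 in *Angpt1*ΔNC, 4.07-fold below the mean of the controls. The summed level of both genes was 248, 283 and 246 CPM, so that *Angpt1*ΔNC lay just under the controls. Of the 5 genes, *Il11ra1* was more than 2-fold above and *Gm13305* more than 2-fold below both controls, where 1.87% of 17414 genes with at least 10 UMIs in 1 library were higher to this extent and 4.11% lower. The genes were chosen on this contrast, so nothing is read from that count. In male-typed cells alone, *Il11ra1* was at 24.7, 29.5 and 135 CPM, 4.99-fold higher in *Angpt1*ΔNC, and *Gm13305* was at 207, 250 and 135, 1.69-fold lower.

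The direction was the same in every class, though the low levels of epithelium, endothelium and immune cells may hold free RNA, which was not tested. *Il11ra1* was higher in *Angpt1*ΔNC than in both controls in 9 of 9 classes, by 3.43-fold in stroma 13 and 17 to 13.1-fold in immune cells, with a median of 5.82-fold over the mean of the controls. *Gm13305* was lower in 9 of 9 classes, by 3.17-fold in TM stroma to 10.8-fold in the ciliary and retinal pigment epithelium. In male-typed cells, the sex type of the controls, both directions were the same in 9 of 9 classes but the sizes were smaller. *Il11ra1* was there 2.78-fold higher in the ciliary and retinal pigment epithelium to 11.9-fold higher in immune cells. *Gm13305* was 1.40-fold lower in TM stroma, 2.25-fold in stroma 13 and 17 and 3.99-fold in mural cells, and in the ciliary and retinal pigment epithelium it was at 111, 99.7 and 24.4 CPM on 452, 146 and 15 UMIs.

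TM stroma stands here for the labels TM_1 to TM_11, which held most of the counts. The name follows the prefix of the labels, and some of them may hold other cells than trabecular meshwork, such as cells of the cornea. There *Il11ra1* was at 70.5 and 74.1 CPM in the controls and at 574 in *Angpt1*ΔNC. *Gm13305* was at 607 and 626 in the controls and at 194 in *Angpt1*ΔNC. Over all cells of the class the controls lay close together and the *Angpt1*ΔNC library lay outside them for both genes. In male-typed cells of the class *Il11ra1* was at 70.2, 74.1 and 417 CPM and *Gm13305* at 606, 630 and 443, while female-typed *Angpt1*ΔNC cells had 686 and 12.8. The summed level over all cells of the class was 677, 700 and 768 CPM. By label it went both ways, as with 1272, 1387 and 1430 CPM in TM_4 and 909, 934 and 742 in TM_3. TM_7, at 446, 461 and 463 CPM, made up 667 of 2803, 739 of 3324 and 174 of 1946 cells. The class level thus joins this mix with the levels within the labels.

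In stroma 13 and 17 the summed level was 835 and 600 in the controls and 369 in *Angpt1*ΔNC, which was below both. By label it was 1744, 1496 and 1211 CPM in cluster 13 and 411, 404 and 305 in cluster 17. Cluster 13 made up 165 of 631, 165 of 1089 and 64 of 956 cells of the class, so the class level joins this mix with the levels within the labels. In immune cells it was 25.4 and 22.5 in the controls and 45.8 in *Angpt1*ΔNC, which was above both. In melanocytes and glia *Il11ra1* was at 15.5, 11.9 and 135 CPM and *Gm13305* at 119, 103 and 16.2. In the controls epithelium and endothelium held the lowest levels, with *Gm13305* at 10.9, 11.3 and 2.06 CPM in the epithelium and at 16.8, 15.3 and 4.91 in the endothelium. A *Gm13305* UMI was found in 80.2% and 83.9% of control TM stroma cells at a median of 5913 and 6377 UMIs, and in 18.8% and 18.1% of control epithelial cells at 18350 and 15486 UMIs. In control immune cells the share was 10.96% and 9.46% at 6008 and 5873 UMIs. Empty droplets were not analysed here, so the part of free RNA in the low shares and levels of epithelium, endothelium and immune cells was not tested, and a UMI in these classes is not read as expression.

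**Figure D1:**
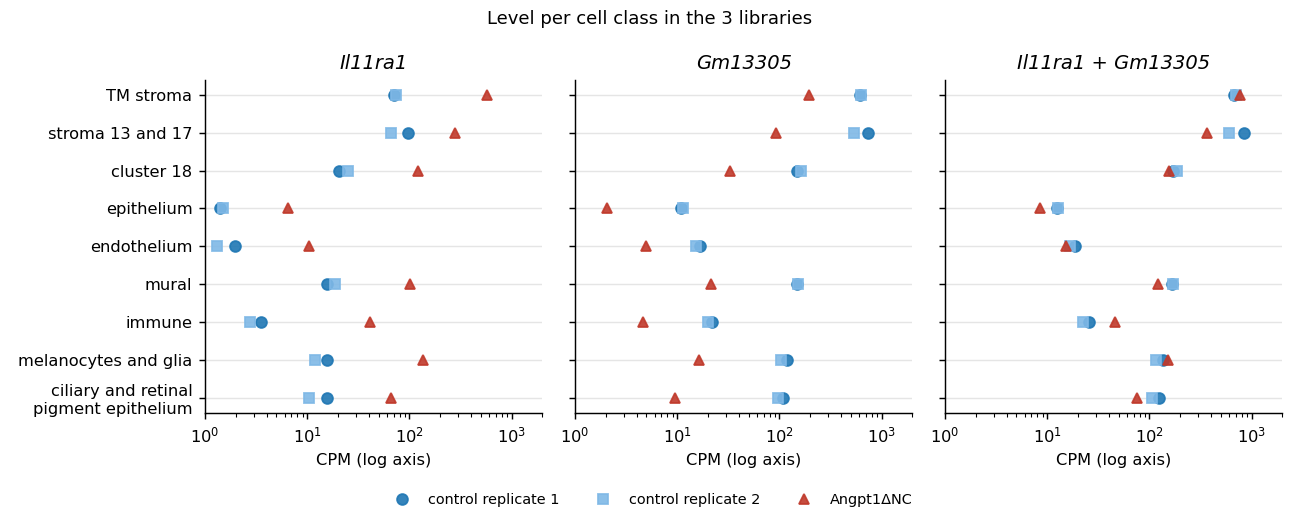
Level of *Il11ra1*, of *Gm13305* and of their sum in each cell class, in CPM on a log axis, with 1 point per library (circles and squares for control replicates 1 and 2, triangles for *Angpt1*ΔNC) and no error bar, since each point is 1 pool. The *Angpt1*ΔNC triangle lies right of both controls for *Il11ra1* and left of both for *Gm13305* in all 9 classes, while for the sum it lies above them in 3 classes and below them in 6.

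The size of the difference was compared between classes within these 3 pools. With the counts summed per library and class (27 sums), the interaction of class and genotype passed edgeR's quasi-likelihood test for *Il11ra1* (adjusted p = 0.00415) and for *Gm13305* (adjusted p = 0.00289), beside 17.3% of the 15474 genes tested. All 5 genes passed the filter on low counts of this fit. *Ccl27a* (adjusted p = 0.127), *Ccl19* (0.176) and *Ccl21a* (0.725) did not pass. With *Il11ra1* and *Gm13305* counted as 1 gene, an alternative chosen after the counts had been seen, the sum also differed between classes (adjusted p = 0.0022). In male-typed cells alone the adjusted p was 0.0436 for *Il11ra1* and 0.0263 for *Gm13305*. The test treats the 9 sums of a library as separate samples, and the *Angpt1*ΔNC sums all come from 1 pool, so it compares these pools only and does not show a difference between cell types in other mice. Class sums also join labels whose mix differed between libraries. Cluster 19, for example, held 387 of 1036, 499 of 1185 and 54 of 345 mural cells. How far the mix enters the interaction was not tested.

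Over the 35 deposited labels the picture was the same where counts allowed. *Il11ra1* was higher in *Angpt1*ΔNC than in both controls in 32 labels, and in 23 of the 23 labels with more than 3 UMIs in each library. *Gm13305* was lower than in both controls in 34 labels, and in 26 of 26 with more than 3 UMIs in each. The exception for *Gm13305* was LEC, where the controls had 4 cells in all, with no UMI, and the 12 *Angpt1*ΔNC cells held 4. For *Il11ra1* the ratio to the mean of the controls ran from 3.27 in cluster 13 to 19 in cluster 24, a label of the immune class. The levels in cluster 24 were low, at 2.6, 2.77 and 51.1 CPM. The summed level lay above both controls in 11, below both in 16 and between them in 4 of the 31 labels with more than 3 UMIs in each library.

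Across labels of the controls both genes had the same leading labels. *Gm13305* was highest in cluster 13 (1539 and 1298 CPM), then in TM_4 (1136 and 1246) and TM_11 (1009 and 1036), and the ranges of the controls did not overlap between these neighbours. *Il11ra1* was highest in cluster 13 as well (205 and 198), followed by TM_4 (136 and 140) and TM_11 (150 and 120), which overlapped each other. Of the 34 steps between neighbours in that order, the controls overlapped in 13 for *Gm13305* and in 26 for *Il11ra1*. Over the 34 labels with at least 20 cells in each control, the gene most like *Il11ra1* among 12867 was *Gm13305* (Pearson r = 0.953 across labels, which share libraries and depth), followed by *Ctsk* (0.929) and *P3h3* (0.913). The genes most like *Gm13305* after *Il11ra1* were *Scarf2* (0.938) and *Ctsk* (0.936).

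The share of *Gm13305* in the UMIs of the pair compares both genes within the same cells. It was 89.3% in either control (exact 95% intervals 88.8 to 89.7% from 19086 UMIs and 88.9 to 89.7% from 22759) and 23.7% in *Angpt1*ΔNC (23.1 to 24.4%, from 16353). These and the other intervals cover counting error only, not the spread between mice. Among classes it ran from 86.1% to 90.5% in control replicate 1, from 86.7% to 92.2% in control replicate 2 and from 10.2% to 32.1% in *Angpt1*ΔNC. Among the 25 *Angpt1*ΔNC labels with at least 20 UMIs of the pair it ran more widely, from 1.96% in cluster 1 to 45.6% in cluster 13.

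Within the *Angpt1*ΔNC pool the share split by sex type. It was 49.96% in male-typed cells (48.7 to 51.3%, from 5705 UMIs) and 1.59% in female-typed cells (1.34 to 1.88%, from 8737 UMIs). In the 921 cells without a sex type or with both signals it was 46.4%. *Gm13305* was at 135 CPM in male-typed and at 3.61 in female-typed cells, 37.4-fold lower, where 0.302% of 14920 genes with at least 20 UMIs were more than 4-fold lower in female-typed cells and 0.436% more than 4-fold higher. *Il11ra1* was at 135 and 223 CPM, 1.65-fold higher in female-typed cells. *Ccl27a* (12.4 and 13.2) and *Ccl19* (3.51 and 3.5) differed little, and *Ccl21a* was at 48.9 and 32.8. Male-typed and female-typed cells come from different mice of the same pool, so the sex of these mice and any other difference between them cannot be told apart, and there is no replicate of the split.

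The split by sex type was seen in each class with enough counts (8 of 8). In all 20 labels with at least 20 UMIs of the pair in each set, the share was lowest in female-typed *Angpt1*ΔNC cells, higher in male-typed ones and highest in the controls, and in 18 of them the 3 levels had separate intervals. In male-typed cells it ran from 23.8% in cluster 24 to 60% in cluster 5 over 21 labels, with a median of 46.3%. In female-typed cells it ran from 0% in cluster 4 to 15.8% in cluster 20 over 22 labels, with a median of 1.1%. In TM stroma it was 51.5% in male-typed (49.99 to 52.96%) and 1.84% in female-typed cells (1.52 to 2.2%), against 89.6% and 89.4% in the controls. In the controls, male-typed cells gave 89.3% and 89.5%.

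**Figure D2:**
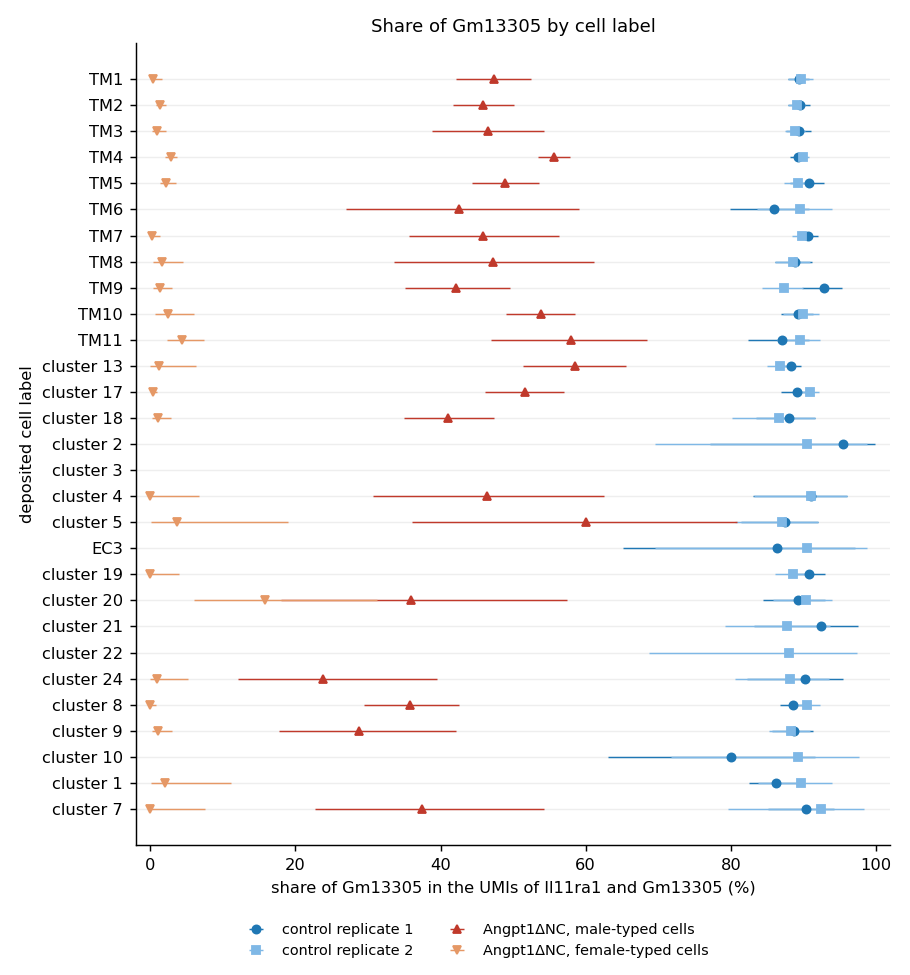
Share of *Gm13305* in the UMIs of *Il11ra1* and *Gm13305* in percent, for each deposited label with at least 20 UMIs of both genes together, with exact 95% intervals that cover counting error only. Control replicates 1 and 2 lie between 80% and 95.5%, male-typed *Angpt1*ΔNC cells lie between 23.8% and 60%, and female-typed ones at 15.8% or less.

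Single cells showed the same split. In cells with at least 5 UMIs of the pair, the median share was 88.9% in both controls (1166 and 1479 cells), and no control cell was under 10%. In *Angpt1*ΔNC, 567 of 1103 such cells were under 10%, 376 were from 30 to 70% and 65 were over 70%. Of the 593 female-typed cells, 557 were under 10% and 521 had no *Gm13305* UMI at all. Of the 389 male-typed cells, 5 were under 10%, 289 were from 30 to 70% and 49 were over 70%, with a median of 50% and quartiles of 40% and 62.5%. A share from 5 UMIs is coarse, so the width of these distributions is in part counting error.

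**Figure D3:**
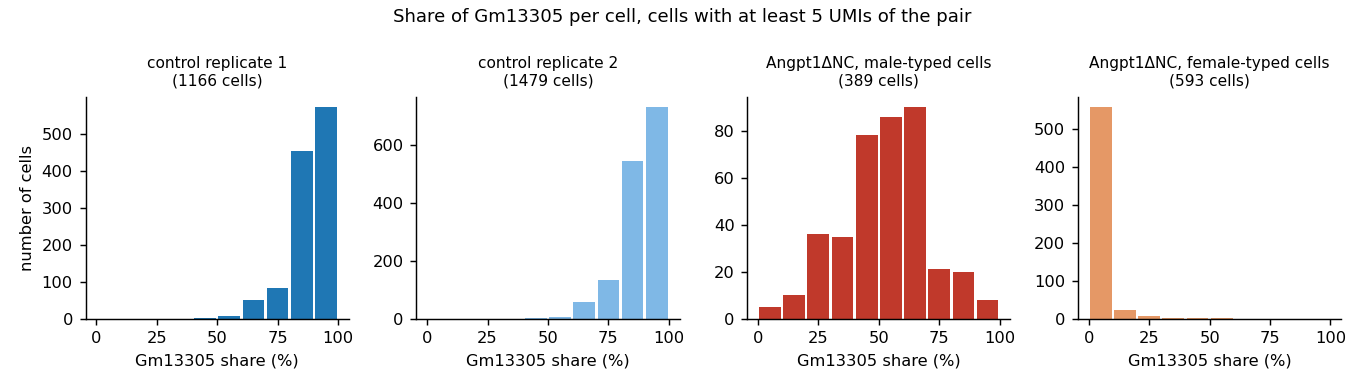
Number of cells by their share of *Gm13305* in percent (bins of 10 percentage points), for cells with at least 5 UMIs of *Il11ra1* and *Gm13305* together, in control replicates 1 and 2 and in male-typed and female-typed cells of *Angpt1*ΔNC, each panel with its own count axis. Control cells gather above 70%, male-typed *Angpt1*ΔNC cells around 50%, and 557 of 593 female-typed cells lie under 10%.

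*Ccl21a* was found mostly in a few endothelial cells. SC and LEC held 99.6% of its 4996 UMIs and 92.9% of its 4125 UMIs in the controls and 99.6% of 2300 in *Angpt1*ΔNC. The gene belongs to the expression pattern by which these labels were drawn, so its presence there is no result. In SC, the endothelium of the canal that drains the aqueous humor, it was at 8368 and 5105 CPM in the controls and at 1002 in *Angpt1*ΔNC. A *Ccl21a* UMI was found in 31 of 46, 24 of 63 and 2 of 15 SC cells (67.4%, 38.1% and 13.3%, exact 95% intervals 52.0 to 80.5%, 26.1 to 51.2% and 1.66 to 40.5%) at a median of 8895, 6943 and 6505 UMIs per cell. The intervals of control replicate 2 and *Angpt1*ΔNC overlap. Of the 147 *Ccl21a* UMIs in the 15 *Angpt1*ΔNC SC cells, 138 came from the 12 female-typed cells, in 1 of them, and 9 from the 2 male-typed cells.

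In LEC every library had *Ccl21a*, at 33188 CPM over 3 cells, 26473 over 1 cell and 15019 over 12 cells. Per cell it ran from 235 to 694 UMIs per 10000 in control replicate 1, stood at 265 in the single cell of control replicate 2, and ran from 0 to 694 in *Angpt1*ΔNC, where 11 of 12 cells were positive. The *Angpt1*ΔNC cells thus spanned the range of the 4 control cells, and at this number a difference could not be read. Since the libraries also differed in the number of SC and LEC cells, the level over all kept cells, 64.9, 51.3 and 34.6 CPM, joins the number of these cells and the level within them. Over all endothelial cells it was 1947, 1247 and 1248.

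Outside SC and LEC, 285 of the remaining *Ccl21a* UMIs lay in cluster 2, a label of the epithelium class, of control replicate 2, in 2 cells, and none in cluster 2 of the other libraries. The cell with most of them had 35519 UMIs, with 41 of *Cdh5*, 16 of *Pecam1* and 9 of *Prox1*, endothelial genes, 12 of *Top2a* and 10 of *Mki67*, genes of dividing cells, and 0 of *Krt5*. Without cluster 2, left out after its counts had been seen, *Ccl21a* over all cells was lower in *Angpt1*ΔNC by 0.68 on the log2 scale, against 0.75 with it. As a mean over cells, however, the log2 difference was 0.019, and with each cell thinned to 1000 UMIs it was -0.033, so the lower level rests on how the cells are weighted. No other label exceeded 4 UMIs in a library.

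*Ccl19* was low, with most of its counts in stromal and mural labels. Of the windows of 90 bases in its transcript, 39.8% occur in no transcript of another gene, and 16.7% of those in its last 400 bases. The others are shared with *Ccl19-ps1*, *Ccl19-ps3*, *Gm12407* and *Gm2564*. Its low level and its lack of UMIs in some labels therefore carry the uncertainty of how shared reads were counted. It had 192, 305 and 234 UMIs over all kept cells, at 2.49, 3.8 and 3.52 CPM, and *Angpt1*ΔNC lay between the controls. Cluster 20, a mural label of pericyte-like cells, held 61, 68 and 40 UMIs, at 29.8, 29.4 and 41.8 CPM. TM_11 had 25.8, 50.7 and 54.9 CPM from 6, 19 and 19 UMIs, cluster 13 had 25.9, 23.3 and 28.3, and TM_6 had 30.9, 23.1 and 12.3 from 14, 9 and 3 UMIs. Of the 12 labels with more than 3 UMIs in each library, *Angpt1*ΔNC was above both controls in 8, below in 2 and between them in 2. The largest ratio among them was that of cluster 21, a mural label, at 4.86, 7.59 and 19.99 CPM from 4, 6 and 7 UMIs, of which the 7 in *Angpt1*ΔNC lay in female-typed cells. The mural class as a whole was at 12.6, 12.3 and 28.7 CPM, and its male-typed cells at 13.1, 12.4 and 17.1. In cluster 19, the third mural label, *Ccl19* was at 0.42, 1.24 and 2.72 CPM on few UMIs. This label made up 387 of 1036, 499 of 1185 and 54 of 345 mural cells, so the class level joins this mix with the levels within the labels. SC, LEC and the other endothelial labels held no *Ccl19* UMI in any library, where 3 UMIs over the endothelium would be 0.977 to 1.64 CPM. The genes most like it across labels were *Irx2* (Pearson r = 0.929), *Irx1* (0.906) and *Adamts2* (0.894).

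*Ccl27a* was spread over most labels at a low level. It was at 11.1, 13.9 and 12.95 CPM over all kept cells, again with *Angpt1*ΔNC between the controls. By class it lay between the controls in 3, above both in 4 and below both in 2. In melanocytes and glia it was at 18.1, 23.1 and 27.1, in TM stroma at 13.9, 16.3 and 16.9 and in epithelium at 3.93, 5.45 and 7.2 CPM. In the ciliary and retinal pigment epithelium it was at 18.9, 29.6 and 19.4. The genes most like it were *Aph1b* (Pearson r = 0.892), *Nenf* (0.88) and *Eri3* (0.871), and those most like *Ccl21a* were *Clca3a2* (0.949), *Duoxa2* (0.934) and *Duox2* (0.919). Among the labels with enough cells, *Ccl21a* had a mean of the controls of 6737 CPM in SC and 153 in cluster 2, the latter from the 2 cells described above. By Spearman correlation these genes stood at 0.290, 0.287 and 0.465.

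**Figure D4:**
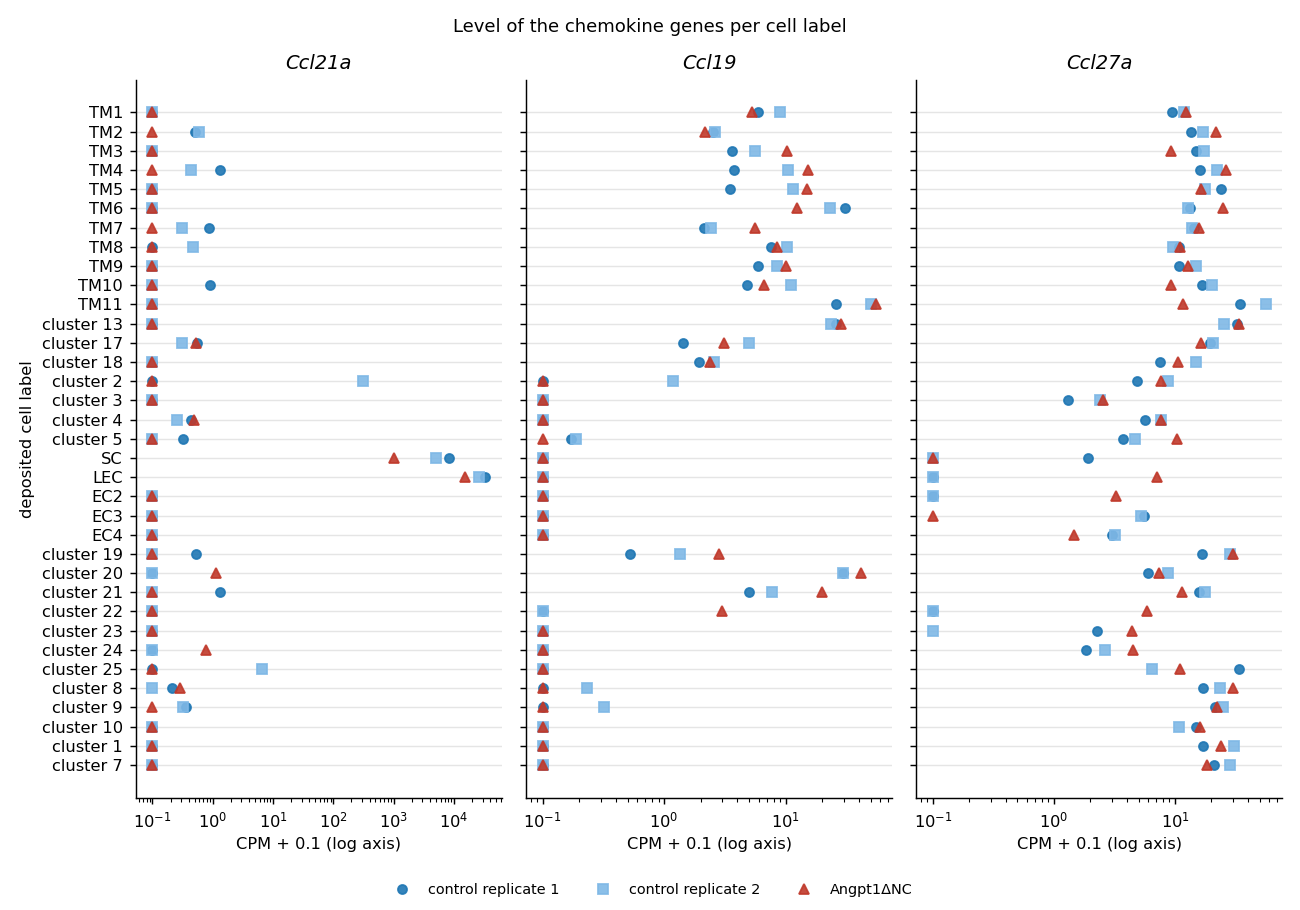
Level of *Ccl21a*, *Ccl19* and *Ccl27a* in each deposited label, in CPM plus 0.1 on a log axis, with 1 point per library and no error bar, since each point is 1 pool. *Ccl21a* rises above 1000 CPM only in SC and LEC, *Ccl19* is at 0 in the endothelial labels, and *Ccl27a* has its highest control levels in TM_11.

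The other genes of the region were compared to see whether the difference extended along the chromosome. Between 41 and 43 Mb, 27 further genes had at least 10 UMIs in 1 library, and 84 had so between 36 and 41 or 43 and 48 Mb. The median of their log2 differences was -0.10 in the window and -0.12 in the flanks, against -0.16 over all 17414 genes. Past 2-fold were 5 of 27 in the window (18.5%), 4 of 84 in the flanks (4.76%) and 9.42% of all genes.

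The largest difference in the window was that of *Gm10600*, a predicted gene with 9 and 16 UMIs in the controls and 154 in *Angpt1*ΔNC (0.117, 0.199 and 2.32 CPM). It was at 2.57 CPM in female-typed and 1.61 in male-typed *Angpt1*ΔNC cells, so both sex types were above the controls. *1700022I11Rik* was higher as well, on 3, 3 and 14 UMIs. Lower in *Angpt1*ΔNC than in both controls were *Kif24*, a kinesin (54, 48 and 8 UMIs), *Gm13307* (78, 112 and 33), *1110017D15Rik* (82, 64 and 25) and *Gm13306* (17, 24 and 7). *Galt*, an enzyme of galactose metabolism (1318, 1187 and 698 UMIs), which lies within the annotated span of *Il11ra1*, was lower by 0.60 on the log2 scale. *AI464131* and *Gm2564* lay between the controls. The fits by class use sums over labels whose mix differed between the libraries, as in mural cells. How far this mix enters the calls was not tested. In edgeR's fits by class, 1 of 24 window genes tested in TM stroma was called (*Gm10600*, higher), beside 3.46% of all genes called higher and 5.52% lower in that class, and 9 of 19 in mural cells (7 higher, 2 lower), beside 9.12% and 7.23%.

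**Figure D5:**
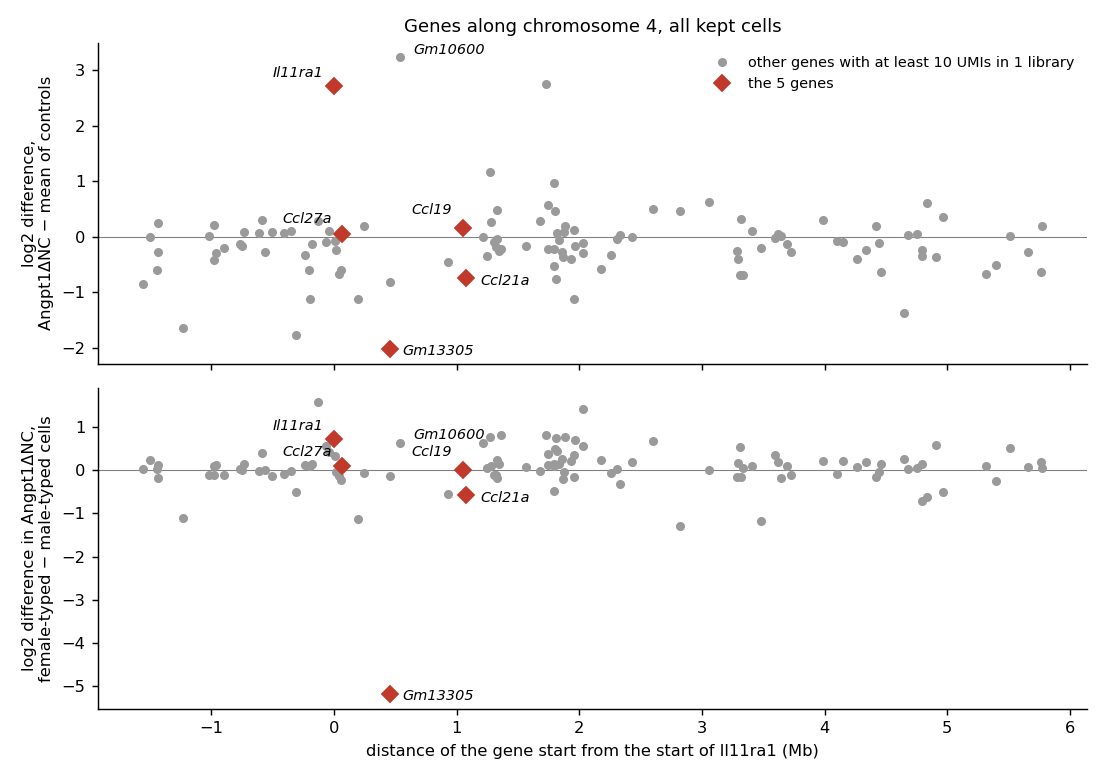
Difference along chromosome 4 against the distance of each gene's start from the start of *Il11ra1* in Mb, on the log2 scale after adding 0.1 CPM. The upper panel gives *Angpt1*ΔNC against the mean of the controls and the lower one female-typed against male-typed *Angpt1*ΔNC cells, each point being 1 gene with at least 10 UMIs in 1 library. *Gm13305* lies lowest in both panels, at -2.02 and -5.19, while *Il11ra1* stands at 2.72 and 0.72.

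The partners of these genes were compared from a list of 14 genes of interleukin-11 and gp130 signalling and 8 chemokines and chemokine receptors. These genes were not used to choose the 5, though the list was written with earlier results known, so their edgeR results are given. The fits compare 2 control libraries against 1 with 1 residual degree of freedom. They use class sums, and the mix of labels within a class differed between the libraries. TM_7, for example, made up 667 of 2803, 739 of 3324 and 174 of 1946 TM stroma cells. How far the mix enters the calls was not tested, and none of the alternatives adjusts for it. In TM stroma 13 of the 14 signalling genes were tested, 1 was higher and 5 were lower, beside 3.46% and 5.52% of all genes, with a median log2 change of -0.36 against -0.01 for all genes. Higher was *Lif*, a gp130 cytokine, and lower were *Clcf1*, *Jak2*, *Lifr*, *Osmr* and *Socs3*. The call of *Lif* was lost in male-typed cells, and those of *Clcf1* and *Lifr* in DESeq2. *Socs3*, the feedback inhibitor of this pathway, was at 389, 304 and 129 CPM (log2 change -1.41 ± 0.18 SE, adjusted p = 0.0023). *Jak2* was at 56.9, 56.4 and 25.3 (-1.16 ± 0.15, adjusted p = 0.0025), and *Osmr*, the oncostatin M receptor, at 183, 179 and 106 (-0.77 ± 0.15, adjusted p = 0.0168). These 3 calls held in DESeq2 and in male-typed cells.

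*Il11* itself, the ligand, did not pass in TM stroma, where it was at 348, 494 and 738 CPM (adjusted p = 0.0527). It was higher in cluster 18 (1240, 1156 and 2191 CPM, adjusted p = 0.0122) and in stroma 13 and 17 (326, 668 and 1543, adjusted p = 0.0251). Both calls were lost in DESeq2 and in male-typed cells. Cluster 13 made up 165 of 631, 165 of 1089 and 64 of 956 cells of stroma 13 and 17, so the *Il11* level of that class joins this mix with the levels within the labels. *Il6st*, the shared receptor chain, was at 164, 165 and 144 in TM stroma and did not pass there.

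In mural cells 6 of 13 signalling genes were higher and 2 lower, beside 9.12% and 7.23% of all genes, with a median log2 change of 0.36 against -0.05. *Lif* rose there from 153 and 122 to 297 CPM (1.31 ± 0.15, adjusted p = 1.98e-05), *Cntfr*, a receptor gene that lies in the window itself, rose from 55.7 and 64.7 to 126 (1.26 ± 0.17, adjusted p = 6.2e-05), and *Socs3* fell from 673 and 503 to 251 (adjusted p = 0.000521). In stroma 13 and 17, 3 of 13 were higher (*Il11*, *Il6ra* and *Lif*), beside 2.47% and 2.06% of all genes. In cluster 18, 1 of 12 was higher (*Il11*) and 1 lower (*Socs3*), beside 1.5% and 1.72%. In epithelium edgeR called 0 of 13, beside 0.0539% and 0.0847% of all genes, while 4 of the 13 had an unadjusted p under 0.05 and DESeq2 called 2 (*Clcf1* and *Il6st*). In endothelium 2 of 11 were higher (*Il6ra* and *Socs3*), beside 8.12% and 4.82%. The call of *Socs3* in endothelium was lost in DESeq2. Cluster 19 made up 387 of 1036, 499 of 1185 and 54 of 345 mural cells, so the mural values join this mix with the levels within the labels. Of the edgeR calls in this paragraph, *Lif*, *Cntfr* and *Socs3* in mural cells held under every alternative that gave a value. So did *Il6ra* in endothelium, *Socs3* in melanocytes and glia and *Clcf1* in the ciliary and retinal pigment epithelium. The others, with *Il11* in immune cells among them, did not. For *Il6ra* in endothelium and *Clcf1* in the ciliary and retinal pigment epithelium DESeq2 gave no adjusted p, so it called neither of them. In immune cells 1 of 13 was higher (*Il11*), beside 2.38% and 1.82%. In melanocytes and glia 1 of 13 was higher (*Cntfr*) and 2 lower (*Il6* and *Socs3*), beside 6.03% and 5.71%. In the ciliary and retinal pigment epithelium 3 of 13 were higher (*Clcf1*, *Il6st* and *Stat3*), beside 7.81% and 8.36%. The interaction with class passed for 13 of the 20 listed genes tested, beside 17.3% of all genes.

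Among the chemokine genes, *Ccr7*, the receptor of CCL21 and CCL19, was higher in immune cells (132, 118 and 228 CPM, adjusted p = 0.00858), a call lost in DESeq2 and with RLE factors. *Ccr10*, the receptor of CCL27, had 12, 8 and 11 UMIs over all kept cells. The endothelium class joins labels whose mix differed between the libraries. SC made up 46 of 295, 63 of 327 and 15 of 209 of its cells in control replicate 1, control replicate 2 and *Angpt1*ΔNC, and LEC 3, 1 and 12. The endothelial values below join this mix with the levels within the labels, and the part of each was not tested. In endothelium *Ccl2* (566, 364 and 61.0 CPM, adjusted p = 1.75e-11) and *Ackr2*, a scavenging chemokine receptor (140, 117 and 32.2, adjusted p = 9.62e-08), were lower, and *Cxcl12* (83.7, 97.0 and 171, adjusted p = 9.98e-06) was higher. Of the 43 calls on the list over all classes, 15 held under every alternative that gave a value, and 23 of 40 were lost in DESeq2.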

How the data were processed

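The deposited matrices hold raw UMI counts of 31053 genes per called cell, which the authors made from mm10 alignments. The submitters' processing notes name Cell Ranger 2.1.1 and Seurat 3.1.3, while the matrix headers name software version 3.0.2. The deposited label of each kept cell was used, and the 35 labels were joined to 9 classes. Per the study's methods, the authors had removed doublets predicted by scDblFinder from the kept cells, and no further caller was run here. The integrated values deposited beside the labels were not used. Genes were matched by identifier, and 31011 of 31053 were found in GENCODE M21. The 5 genes, the gene lists and the tests were chosen with earlier results of these data known.

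Counts were summed per library and class and fitted with edgeR 4.0.16 in R 4.3.3 (TMM factors, filterByExpr, the quasi-likelihood test, and p adjusted after Benjamini and Hochberg with a threshold of 0.05). The lone *Angpt1*ΔNC library is assumed to vary like the controls, and since the pools are the replicates, p-values measure the spread between these libraries only. SE is the log2 change over the root of F. Alternatives were DESeq2 1.42.0, RLE factors, no filter, male-typed cells (a UMI of *Ddx3y*, *Eif2s3y*, *Kdm5d* or *Uty* and none of *Xist*), thinning each cell to 1000 UMIs, other weights and leaving out a control. Named genes are the 5, the 10 others between 41 and 43 Mb with the largest log2 difference, the 22 listed partners and the 3 most alike in Pearson r of log2 values with 1 added, among genes reaching 10 CPM in a label. Transcripts were aligned with Biopython, and sequences are from GENCODE M21. Protein and genome sequences were not analysed here. One of the 10 genes between 41 and 43 Mb is not reported here.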

Additional observations from a re-analysis of the deposited data

Results flagged for a closer look

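Within the 3 pools, the change of *Il11ra1* between *Angpt1*ΔNC and the controls differed between the 9 cell classes (adjusted p = 0.00415, edgeR interaction over 27 sums, of which all *Angpt1*ΔNC ones come from 1 library), with *Il11ra1* higher in 9 of 9 classes. The change of *Gm13305* differed between classes as well (adjusted p = 0.00289), with *Gm13305* lower in 9 of 9 classes. The share of female-typed cells in the *Angpt1*ΔNC library moved with the class, from 293 of 650 immune cells to 638 of 956 in stroma 13 and 17. The mix of labels within a class also differed between the libraries. In epithelium, endothelium and immune cells the levels were low, and the part of free RNA was not tested. In male-typed cells alone both genes still passed (adjusted p = 0.0436 for *Il11ra1* and 0.0263 for *Gm13305*). No group had the 4 samples that a check for an outlying library needs.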

How the results depend on the processing

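Depth limited the labels of few cells, above all LEC, and with 2 controls and 1 *Angpt1*ΔNC library the smallest p of an exact permutation test is 0.333. No paired analysis was possible because the *Angpt1*ΔNC group is 1 library, so the groups share fewer than 2 replicate numbers. The direction of *Il11ra1* and *Gm13305* over all kept cells was kept under every alternative run. In male-typed cells the log2 difference was 2.32 for *Il11ra1* (2.72 in all cells) and -0.76 for *Gm13305* (-2.02 in all cells), and with each cell thinned to 1000 UMIs *Gm13305* was at -1.88. The *Gm13305* share of *Angpt1*ΔNC was 49.96% in male-typed and 1.59% in female-typed cells, the latter chosen after the data were seen. *Ccl21a* reversed to 0.019 as a mean over cells, and was at -0.033 after thinning and at -1.20 with equal weights for the labels. Leaving out a control moved the log2 difference of *Il11ra1* from 2.63 to 2.81, of *Gm13305* from -2.12 to -1.92, of *Ccl21a* from -0.91 to -0.57, of *Ccl27a* from -0.10 to 0.23 and of *Ccl19* from -0.11 to 0.48, so the sign of the last pair rests on the control used. The interaction of *Ccl21a* passed without the filter on low counts (adjusted p = 4.18e-25 against 0.725), and the cause was not tested.

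Counts of genes called moved by more than 1.5 times in these cases. DESeq2 called 629 against 1251 in TM stroma, 203 against 531 in stroma 13 and 17, 55 against 281 in cluster 18, 492 against 18 in epithelium, 261 against 1250 in endothelium, 550 against 1898 in mural cells, 83 against 436 in immune cells, 493 against 1466 in melanocytes and glia, 311 against 1673 in the ciliary and retinal pigment epithelium and 4091 against 2676 for the interaction. Without the filter the counts were 2441 in TM stroma, 1415 in stroma 13 and 17, 2005 in epithelium, 886 in immune cells and 4248 for the interaction. RLE factors gave 919 in stroma 13 and 17 and 33 in immune cells. Male-typed cells gave 123 in stroma 13 and 17, 91 in epithelium and 926 in melanocytes and glia. Of the 43 calls on listed partner genes, DESeq2 lost 23, male-typed cells 10, RLE factors 4 and no filter 3, and in male-typed cells *Ccl2* in TM stroma reversed to -0.050 and *Cxcl10* in mural cells to 0.35.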
